A study of Rattus norvegicus with 20 samples.

Results

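The 2 sarcomeric actins described here are Acta1, encoding skeletal muscle alpha-actin, and Actc1, encoding cardiac alpha-actin. They were taken by identifier, ENSRNOG00000017786 for Acta1 and ENSRNOG00000008536 for Actc1, from a table of 30452 rat genes, and both were among the 10929 genes that passed the filter on low counts. The symbols came with the choice of these identifiers, since the table itself holds none. Messenger RNA was counted in 20 ventricle libraries of male rats, RV standing for the right and LV for the left ventricle. There were 5 RV libraries and 5 LV libraries after monocrotaline (MCT) at 60 mg/kg, and 5 RV libraries and 5 LV libraries after saline. MCT, a toxin from Crotalaria plants, damages the lung vasculature and so loads the RV with pressure in this widely used rat model. All rats were treated at a body weight of 250 g, and according to the labels the endpoint was a discomfort score of 7 or above. The labels used here give no strain, age or time from injection to death, and do not say in words which libraries came from one rat. The RV and LV libraries of one treatment and number carry the same date-like code, in all 5 numbers of each treatment. Values of RV against LV are therefore also given with the number as a block. The p-values below measure the spread between libraries.

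Actin monomers join into the thin filament of the sarcomere, along which myosin heads pull to shorten the muscle cell. Actc1 is the main sarcomeric actin of the adult heart. Acta1 is the main one of adult skeletal muscle, is used by the fetal heart, and is known as one of the fetal genes that rodent ventricles express again under pressure load. Both genes are known targets of serum response factor, which binds a DNA element called the CArG box.

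The regions around the annotated starts of both genes are shown because this element, known to be shared by both genes, lies in both windows. Each stretch covers 250 bases before and 50 bases after the annotated start on the minus strand (RefSeq, build GRCr8), printed 5′ to 3′ with the CArG box in capitals. Acta1 lies at chr19:68784145-68784444 and Actc1 at chr3:121271778-121272077.
Acta1: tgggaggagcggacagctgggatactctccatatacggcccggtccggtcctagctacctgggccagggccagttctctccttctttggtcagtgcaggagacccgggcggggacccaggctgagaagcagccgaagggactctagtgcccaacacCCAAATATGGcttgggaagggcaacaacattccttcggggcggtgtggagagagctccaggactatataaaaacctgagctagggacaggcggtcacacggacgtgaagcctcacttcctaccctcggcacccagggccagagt
Actc1: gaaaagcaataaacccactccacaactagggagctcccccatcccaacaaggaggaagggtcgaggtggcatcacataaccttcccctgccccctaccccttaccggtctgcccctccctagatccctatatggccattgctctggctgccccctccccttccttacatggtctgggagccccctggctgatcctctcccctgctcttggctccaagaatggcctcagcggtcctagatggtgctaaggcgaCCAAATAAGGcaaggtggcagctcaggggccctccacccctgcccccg
The CArG box of Acta1 begins 94 bases before its annotated start, and that of Actc1 begins at base 3 after its annotated start. This element, searched on both strands, was found in 1.637% of 33469 such windows. CATTCCT, a form of the element bound by TEAD factors, was found 67 bases before the Acta1 start and in 5.166% of all windows, and TATAAA was found 29 bases before the Acta1 start and in 14.22% of all windows. Neither was found in the Actc1 window on either strand, and none of the matches overlap. Sequence beyond 50 bases after the annotated start was not searched, and where transcription starts was not examined. These matches describe the letters in the windows.

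Total counts ran from 3272420 to 9227104 per library, and levels are given as CPM, counts scaled to a common library size, with TMM factors that even out differences in library composition. With these depths the exact 95% counting interval of an Acta1 or Actc1 value reached at most 7.54% of the value on either side. Counts came from 3′ end libraries, and the way reads shared with near-identical copies were treated is not given in the sources used here. The RefSeq gene table lists 3 pseudogenes of Acta1 and 1 of Actc1, so a part of their counts is uncertain. Markers of cell types could not be checked, since the other identifiers could not be paired with symbols. Actc1 ranked between 13 and 23 among all genes in every library, which is no check of muscle content, since Actc1 is itself one of the genes described. On the first principal component of all genes tested (31.99% of the variance), 2 MCT libraries, RV replicate 4 at -30.3 and LV replicate 3 at -21.0, fell within the saline range of -31.0 to -9.61, and the other 8 MCT libraries lay above it. The MCT libraries numbered 5 went against their ventricle labels. Of 365 other genes whose RV and LV saline libraries did not overlap, 33.7% differed in the same direction between RV and LV MCT replicate 5, against 59.7% to 84.4% in the 4 other MCT pairs of one number. An exchange of RV and LV in these 2 libraries is possible and was not tested, so their values are given under the labels as deposited. The date-like codes in the labels read as May or June for replicates 1 to 3 and as November for replicates 4 and 5.

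Acta1 was high in most RV MCT libraries, although the difference from saline did not pass the test across all genes. It was at 1826, 2736, 1024, 241 and 489 CPM in RV MCT replicates 1 to 5, against 289, 326, 310, 328 and 233 CPM in RV saline replicates 1 to 5. Of the MCT libraries, 4 lay above every saline library, and replicate 4, which also lay among saline libraries on the first principal component, lay within the saline range. The means were 1263 ± 1023 CPM after MCT and 297 ± 39.1 CPM after saline (SD, n = 5 each). The highest value was 11.3 times the lowest within RV MCT and 1.41 times the lowest within RV saline. In bulk tissue, a change in the share of muscle cells and a change of a transcript per muscle cell cannot be told apart.

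The fitted Acta1 level in the RV was 4.25 times as high after MCT as after saline, or 2.09 on the log2 scale (SE 0.51), which did not pass the threshold of 0.05 (edgeR quasi-likelihood test, Benjamini-Hochberg adjusted p = 0.060). The fitted fold change follows the mean levels, while mean log2 CPM was 9.82 in RV MCT and 8.21 in RV saline. It was above the fitted fold change of 99.4% of the genes tested. Neither actin was called in this comparison, in which 0.274% of the genes tested were called. Nor was either actin free of overlap between the RV groups, as 0.961% of the genes were in being higher after MCT and 1.42% in being lower. The side of the threshold depended on the libraries and the method. Without RV MCT replicate 4 the log2 fold change was 2.35 (edgeR adjusted p = 0.0071), without RV MCT replicate 5 it was 2.296 (adjusted p = 0.042) and without RV MCT replicate 3 it was 2.16 (adjusted p = 0.044). It did not pass without RV MCT replicate 1 (1.92, adjusted p = 0.21) or without RV MCT replicate 2 (1.60, adjusted p = 0.22), the libraries with most Acta1. With 1 RV saline library left out it was between 2.01 and 2.13, and none of these 5 fits passed. With both MCT libraries numbered 5 left out it was 2.297 (adjusted p = 0.023). It passed with DESeq2 (log2 fold change 2.10, adjusted p = 0.0038) and with limma voom (1.66, adjusted p = 0.043), used here and below with quality weights for libraries. It did not pass with the RV libraries fitted alone (2.10, edgeR adjusted p = 0.17) or with no filter on low counts (2.08, adjusted p = 0.12). Within the May or June libraries, 3 against 3, the log2 fold change was 2.61 (edgeR adjusted p = 0.020), and within the November libraries, 2 against 2, it was 0.38 (adjusted p = 0.97). The November MCT libraries include replicate 4, so the code and that library cannot be told apart. Scaled by the total count alone it was 2.30 (edgeR adjusted p = 0.047), and relative to the median of all genes, which that scaling moved to 0.15, it was 2.15.

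Actc1 in the RV was not called, and its groups overlapped. It was at 4402, 6146, 4885, 5204 and 3586 CPM in RV MCT replicates 1 to 5, against 5194, 6409, 5893, 5941 and 5900 CPM in RV saline replicates 1 to 5. Of the MCT libraries 3 lay below all saline libraries, and replicates 2 and 4 lay among them. The means were 4845 ± 949 CPM after MCT and 5867 ± 434 CPM after saline (SD, n = 5 each). The log2 fold change was -0.28 (SE 0.19, edgeR adjusted p = 0.51), with a 95% interval from -0.68 to 0.13. Losses beyond -0.68 on the log2 scale lay outside this interval, and smaller ones did not.

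**Figure D1:**
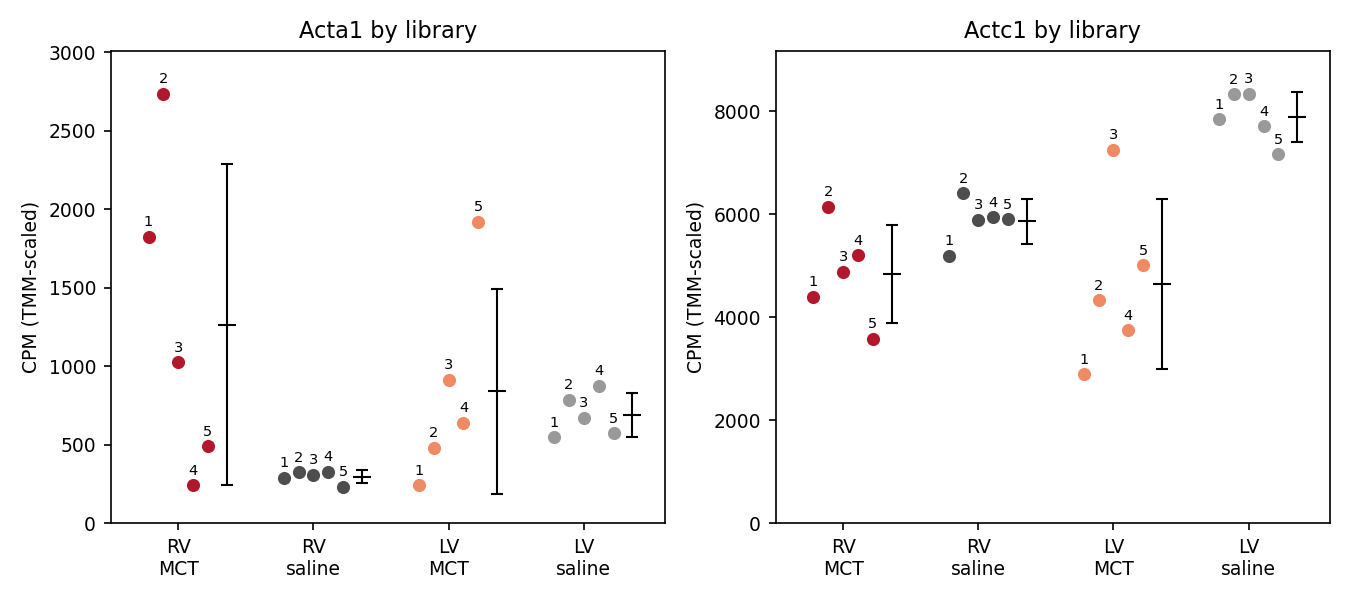
Levels of Acta1 (left) and Actc1 (right) in TMM-scaled CPM for each library, with replicate numbers, and the mean with its SD (n = 5) beside each group. Acta1 reached 2736 CPM in RV MCT and 1920 CPM in LV MCT while saline libraries stayed between 233 and 875 CPM, and Actc1 was between 2888 and 7255 CPM in LV MCT against 7170 to 8343 CPM in LV saline.

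In the LV, Actc1 fell after MCT. It was at 2888, 4327, 7255, 3754 and 5012 CPM in LV MCT replicates 1 to 5, against 7853, 8333, 8343, 7717 and 7170 CPM in LV saline replicates 1 to 5. Only LV MCT replicate 3 reached the saline range, and it is the LV library that lay among saline libraries on the first principal component. The other 4 lay below all saline libraries, so the groups overlapped, where 3.82% of the genes were lower after MCT without overlap. The means were 4647 ± 1653 CPM after MCT and 7883 ± 488 CPM after saline (SD, n = 5 each). The fitted level after MCT was 0.589 times that after saline, or -0.76 on the log2 scale (SE 0.20, edgeR adjusted p = 0.022). Actc1 was thus called, as were 9.52% of the genes tested in this comparison, and 4.49% of the genes tested had a lower fold change. Fewer muscle cells and less Actc1 per muscle cell cannot be told apart here.

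The call on Actc1 in the LV was close to the threshold. The adjusted p was 0.052 without LV MCT replicate 1 and 0.057 without LV MCT replicate 4, and without LV MCT replicate 3 the log2 fold change was -0.98 (edgeR adjusted p = 0.0015). Scaled by the total count alone the log2 fold change was -0.48 (edgeR adjusted p = 0.058). That scaling moved the median of all genes to 0.39, against 0.030 with TMM, and relative to the median Actc1 was at -0.87 with the total count and -0.79 with TMM. Within the May or June libraries it was -0.79 and within the November libraries -0.77, with adjusted p of 0.32 and 0.16. Fitted with the LV libraries alone it was -0.76 (adjusted p = 0.056), and with both MCT libraries numbered 5 left out it was -0.81 (adjusted p = 0.041).

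Acta1 in the LV was uneven after MCT. It was at 243, 481, 913, 640 and 1920 CPM in LV MCT replicates 1 to 5, against 548, 786, 671, 875 and 573 CPM in LV saline replicates 1 to 5. The MCT libraries lay on both sides of the saline range, with replicates 1 and 2 below it, replicates 3 and 5 above it and replicate 4 within it. Of all genes tested, 3.21% were higher after MCT without overlap. The means were 839 ± 651 CPM after MCT and 690 ± 139 CPM after saline (SD, n = 5 each). The log2 fold change was 0.28 (SE 0.49, edgeR adjusted p = 0.78), with a 95% interval from -0.75 to 1.31. Its sign was not settled. Without LV MCT replicate 5 the log2 fold change was -0.30 (edgeR adjusted p = 0.78). With that library kept it was -0.077 with limma voom and -0.056 with the replicate number as a block. Within the May or June libraries it was -0.32 and within the November libraries 0.82, with adjusted p of 0.78 and 0.37.

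The ratio of the actins within a library needs no scaling between libraries. It is given as Acta1 counts per 100 Actc1 counts, which serves to compare libraries and is not a ratio of molecules, since the efficiency of capture at each 3′ end is unknown. In the RV it was 41.5, 44.5, 21.0, 4.64 and 13.6 in MCT replicates 1 to 5, against 5.56, 5.09, 5.25, 5.52 and 3.95 in saline replicates 1 to 5. Again 4 MCT libraries lay above all saline libraries and replicate 4 lay among them. The ratio averaged 25.04 ± 17.4 after MCT and 5.08 ± 0.658 after saline (SD, n = 5 each). The difference of the mean log2 ratios was 1.91 (SE 0.61), or 3.76-fold, which is another measure than the edgeR fold change of mean levels. The exact two-sided permutation test gave p = 0.040, and 0.079 after Benjamini-Hochberg adjustment over the 5 ratio comparisons. Without RV MCT replicate 4 the difference was 2.42 (exact permutation test, adjusted p = 0.020). It was 2.67 within the May or June libraries, where the exact permutation test of 3 against 3 cannot go below p = 0.10, and 0.77 within the November libraries, where 2 against 2 were not tested.

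In the LV the ratio was 8.42, 11.1, 12.6, 17.0 and 38.3 per 100 in MCT replicates 1 to 5, against 6.97, 9.43, 8.04, 11.3 and 7.99 per 100 in saline replicates 1 to 5. Of the MCT libraries, 3 lay above all saline libraries, and replicates 1 and 2 lay among them. The means were 17.5 ± 12.1 after MCT and 8.75 ± 1.69 after saline (SD, n = 5 each). The log2 difference was 0.80 (SE 0.39), or 1.74-fold (exact two-sided permutation test, p = 0.048, adjusted p = 0.079). Mean log2 CPM of Acta1 was 9.38 in LV MCT and 9.41 in LV saline, and that of Actc1 was 12.11 and 12.94. On the log2 scale the higher LV ratio thus went with a lower mean of Actc1, and not with a higher mean of Acta1. Without LV MCT replicate 1 the log2 difference of the ratio was 1.01 (exact permutation test, adjusted p = 0.040). Without LV MCT replicate 5 it was 0.46 (exact permutation test, adjusted p = 0.13). With any other single library left out it did not pass, and without LV saline replicate 1 the adjusted p was highest, at 0.20. It was 0.39 within the May or June libraries and 1.43 within the November libraries. In LV MCT replicate 1 the level of Acta1 was the lowest of its group and so was that of Actc1, which left its ratio within the saline range.

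**Figure D2:**
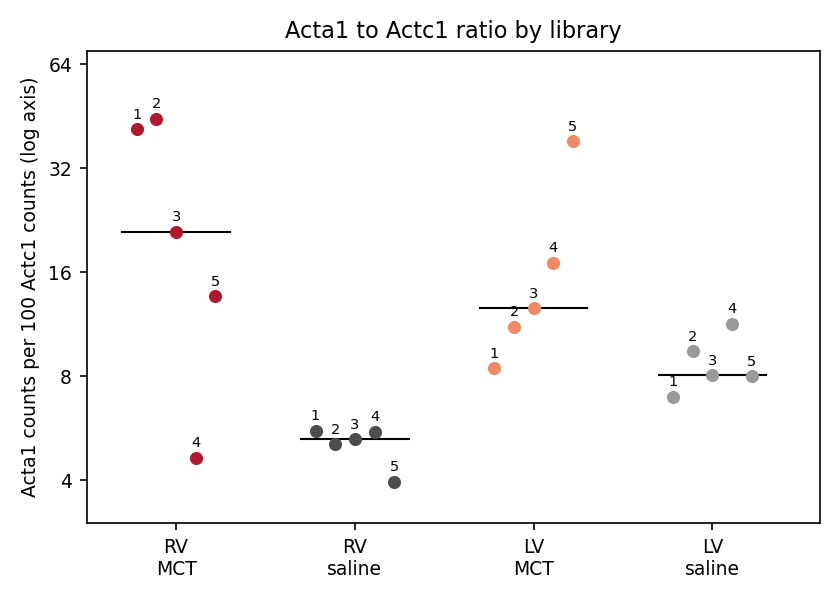
Acta1 counts per 100 Actc1 counts in each library on a log axis, with replicate numbers and the group median as a line. The RV medians were 21.0 after MCT and 5.25 after saline, the LV medians were 12.6 after MCT and 8.04 after saline, and RV MCT replicate 4 at 4.64 was the only MCT library within the RV saline range.

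The responses of both ventricles were then set against each other. After MCT the log2 fold change of Acta1 was 2.09 for RV libraries and 0.28 for LV libraries, a difference of 1.81 (SE 0.70, 95% interval 0.34 to 3.27). The edgeR quasi-likelihood test gave this difference an unadjusted p of 0.018 and an adjusted p of 0.9999, so it was not called. None of the genes tested was called (0%), 305 had an unadjusted p under 0.05, and DESeq2 and limma voom called 1 each. For Actc1 the log2 fold changes were -0.28 for RV libraries and -0.76 for LV libraries, a difference of 0.49 (SE 0.28, edgeR adjusted p = 0.9999). With libraries of one treatment and number as a block, the difference for Acta1 was 1.62 (SE 0.85, edgeR unadjusted p = 0.078). For Actc1 it was 0.54 with that block (SE 0.28, edgeR unadjusted p = 0.078). For the ratio the difference of log2 responses was 1.11 (SE 0.72, exact permutation test with treatment labels exchanged within each ventricle, p = 0.26, adjusted p = 0.33). This permutation did not keep RV and LV libraries of one number together. The difference for Acta1 was 2.93 within the May or June libraries and -0.44 within the November libraries, and with both MCT libraries numbered 5 left out it was 2.59 (adjusted p = 0.92). Its direction was thus not the same in both sets of codes.

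**Figure D3:**
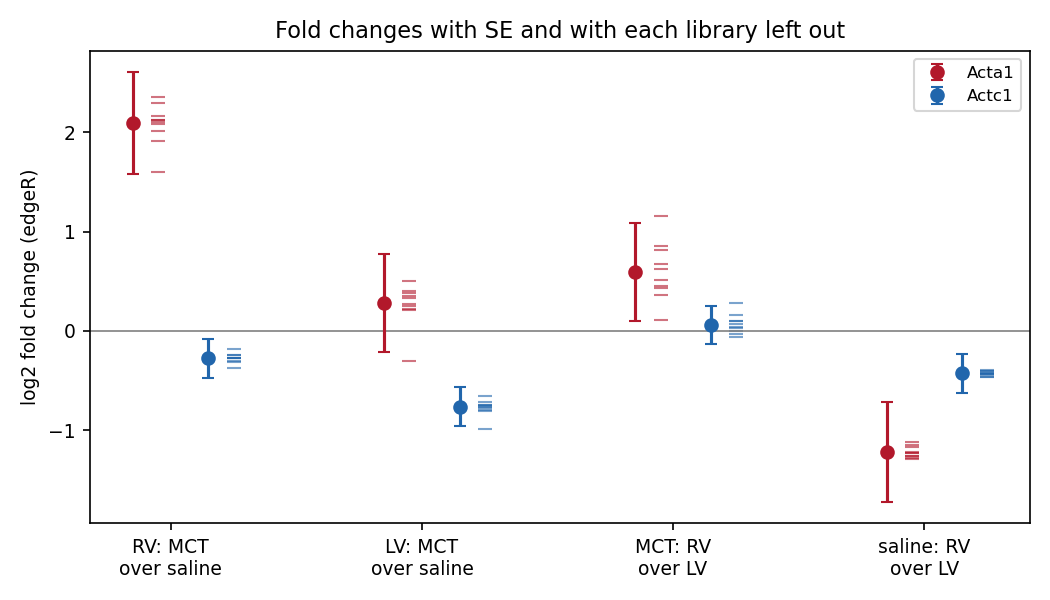
Fitted log2 fold changes of Acta1 and Actc1 in 4 comparisons, with 1 SE (edgeR), and beside each the values with every library of the comparison left out in turn. Acta1 stood at 2.09 in the RV and moved between 1.60 and 2.35, while in the LV it stood at 0.28 and moved between -0.30 and 0.50.

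Between the ventricles of saline rats, both actins were lower in the RV, without overlap. Acta1 averaged 297 ± 39.1 CPM in RV saline and 690 ± 139 CPM in LV saline (SD, n = 5 each), and its highest RV library, at 328 CPM, was below its lowest LV library, at 548 CPM. The log2 fold change was -1.22 (SE 0.50, edgeR adjusted p = 0.49), which did not pass in the fit of all 20 libraries. The spread in that fit also comes from the MCT libraries, in which Acta1 varied more. With the saline libraries fitted alone the log2 fold change was -1.22 (SE 0.16, edgeR adjusted p = 0.0024), a fit that called 0.805% of its genes. With the number as a block as well it was -1.20 (SE 0.12, edgeR adjusted p = 0.00059), a fit that called 1.66% of its genes. It did not pass with DESeq2 (adjusted p = 0.31) or limma voom (adjusted p = 0.12). Actc1 averaged 5867 ± 434 CPM in RV saline and 7883 ± 488 CPM in LV saline (SD, n = 5 each), which is -0.43 on the log2 scale (SE 0.19, edgeR adjusted p = 0.57), and the adjusted p was 0.11 with the saline libraries alone and 0.069 with the block. Lower values without overlap in RV saline were seen in 1.77% of the genes tested, higher ones in 1.59%, and in the fit of all 20 libraries 0.0732% of genes were called in either direction, neither actin among them.

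The ratio also separated the saline ventricles. All 5 RV saline libraries, at 3.95 to 5.56 per 100, lay below all 5 LV saline libraries, at 6.97 to 11.3 per 100. The log2 difference was -0.78 (SE 0.15), so the RV ratio was 0.584 times the LV ratio. The exact two-sided permutation test gave p = 0.0079, the smallest that 5 against 5 libraries allow, and an adjusted p of 0.040. Without RV saline replicate 5 the adjusted p was 0.079. With labels exchanged only within the sets of codes the exact permutation test gave p = 0.017, the smallest it allows, and an adjusted p of 0.056. With RV and LV libraries of one number as a block the exact sign-flip test gave p = 0.0625, the smallest that 5 numbers allow, so this test could not pass. The difference was -0.61 within the May or June libraries and -1.03 within the November libraries.

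After MCT the ventricles overlapped for both genes. Acta1 averaged 1263 ± 1023 CPM in RV MCT and 839 ± 651 CPM in LV MCT (SD, n = 5 each), which is 0.59 on the log2 scale (SE 0.49, edgeR adjusted p = 0.99996, 95% interval -0.44 to 1.62). Actc1 averaged 4845 ± 949 CPM in RV MCT and 4647 ± 1653 CPM in LV MCT, which is 0.060 on the log2 scale (SE 0.19, edgeR adjusted p = 0.99996, 95% interval -0.34 to 0.46). No gene was called in this comparison (0%) by edgeR, DESeq2 or limma voom, and 203 had an unadjusted p under 0.05 in edgeR. Without overlap, 0.0732% of the genes were higher and 0.0366% lower in RV MCT. The sign of Actc1 was not settled, as it was -0.061 with LV MCT replicate 1 left out, -0.030 with RV MCT replicate 2 left out and -7.89e-06 with LV MCT replicate 4 left out. The ratio differed by 0.33 on the log2 scale (SE 0.71, exact permutation test, p = 0.63, adjusted p = 0.63). With the number as a block the log2 fold change of Acta1 was 0.42 (SE 0.80, edgeR unadjusted p = 0.61). That of Actc1 was 0.11 (SE 0.26, edgeR unadjusted p = 0.67), and the exact sign-flip test of the ratio gave p = 0.69. The intervals leave room for differences of more than 2-fold in Acta1, so the ventricles are not shown to be alike after MCT.

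The order of the ventricles for Acta1 differed between MCT libraries. In those numbered 1, 2 and 3, RV Acta1 was 7.51, 5.69 and 1.12 times LV Acta1 of the same number, and in those numbered 4 and 5 it was 0.377 and 0.255 times LV Acta1. In the saline libraries RV Acta1 was between 0.375 and 0.528 times LV Acta1 in all 5 numbers. Within the May or June MCT libraries the log2 fold change of RV over LV was 1.80 (edgeR adjusted p = 0.14), and within the November MCT libraries it was -1.80 (adjusted p = 0.63). With both MCT libraries numbered 5 left out it was 1.37 (adjusted p = 0.56). For replicate 5 the value is under the ventricle labels as deposited, which that pair went against. The 2 sets hold different libraries as well as different codes, and the part of either was not tested.

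**Figure D4:**
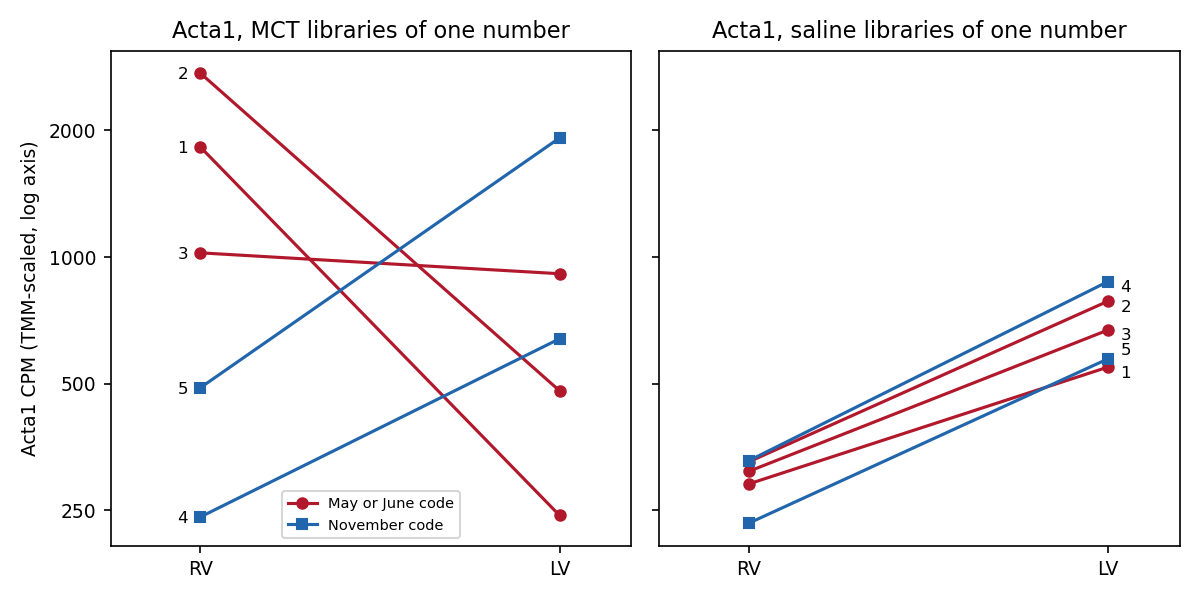
Acta1 in TMM-scaled CPM on a log axis in RV and LV libraries of the same treatment and number, joined by a line, for MCT (left) and saline (right), with colour and marker for the date-like code. In saline all 5 lines run upward from RV to LV, while among MCT libraries those numbered 4 and 5 run upward and those numbered 1, 2 and 3 run downward.

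By level over the groups, Acta1 was in the order RV MCT (1263 CPM), LV MCT (839 CPM), LV saline (690 CPM) and RV saline (297 CPM). Neither the step from RV MCT to LV MCT nor that from LV MCT to LV saline was larger than the spread within groups, while RV and LV saline did not overlap. Actc1 was in the order LV saline (7883 CPM), RV saline (5867 CPM), RV MCT (4845 CPM) and LV MCT (4647 CPM). Of its steps only that from LV saline to RV saline was free of overlap. The coefficient of variation of Acta1 was 81.0% after MCT and 13.2% after saline among RV libraries, and 77.6% after MCT and 20.2% after saline among LV libraries. That of Actc1 was 19.6% after MCT and 7.40% after saline among RV libraries, and 35.6% after MCT and 6.19% after saline among LV libraries. Both actins thus varied more in both MCT groups than in both saline groups, a description that was not tested.

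Whether the 2 actins varied together was examined over the 10 libraries of each ventricle, with p-values from 100000 permutations adjusted over the 2 ventricles. In the RV Pearson's r of log2 CPM was -0.19 (permutation p = 0.60, adjusted p = 0.60) and Spearman's rho was -0.15 (permutation p = 0.68, adjusted p = 0.68), and r was 0.26 when scaled by the total count alone. In the LV r was 0.43 (permutation p = 0.23, adjusted p = 0.46) and rho was 0.38 (permutation p = 0.28, adjusted p = 0.56). Without the 2 libraries farthest from the median of Acta1, r was -0.46 for RV and 0.45 for LV libraries. The LV value rested on single libraries, as it was 0.76 without LV MCT replicate 5 (permutation test, adjusted p = 0.031) and -0.030 without LV MCT replicate 1. With the group means removed r was 0.35 in the RV and 0.68 in the LV, and neither passed the threshold (permutation test within groups, adjusted p = 0.54 and 0.32).

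Among 6888 other genes with a mean log2 CPM of at least 3, those with the pattern most like each actin over all 20 libraries were found by Pearson's r of log2 CPM. These values describe libraries that share scaling and groups and carry no test. Since the genes were picked by their pattern in these same libraries, their fold changes and p-values lend no support to those of the actins. The genes are given by identifier only, because the table does not pair them with symbols. ENSRNOG00000021015 was most like Acta1, with r of 0.83. It averaged 30.5 CPM in RV MCT and 5.11 CPM in RV saline (log2 fold change 2.60, SE 0.52, edgeR adjusted p = 0.032). Its LV log2 fold change was 0.91 (SE 0.50, edgeR adjusted p = 0.28). ENSRNOG00000008949 followed with r of 0.83, and its RV log2 fold change was 0.81 (SE 0.29, edgeR adjusted p = 0.15). ENSRNOG00000056596 was most like Actc1, with r of 0.93 and an LV response of -0.997 on the log2 scale (SE 0.35, edgeR adjusted p = 0.071). ENSRNOG00000021866 followed with r of 0.88, and it fell in the LV to 92.7 CPM after MCT, against 171 CPM after saline (log2 fold change -0.89, SE 0.18, edgeR adjusted p = 0.010).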

How the data were processed

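The values are raw read counts per Ensembl rat gene as the authors deposited them, 1 column per library, matched to samples by the label codes. Libraries were of the QuantSeq 3′ type, per the labels' protocols. STAR 2.7.10a and HTSeq 0.11.3 were used and the builds mRatBN7.2 and rn6 named, per the submitters' processing notes, while the sources used here give neither strand setting nor annotation release. All 20 columns were used. The RefSeq table of gene names (GRCr8) held an Ensembl ID for 0 genes, so gene lists and cell type markers fixed by symbol could not be tested. Printed coordinates are those of GRCr8, another build than the counts.

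The count model was edgeR 4.0.16 under R 4.3.3 (TMM, filterByExpr, robust quasi-likelihood fit of 4 group means over 20 libraries, Benjamini-Hochberg adjustment over 10929 genes, threshold 0.05). The SE is the log2 fold change divided by the root of F. Log2 CPM used a prior count of 2. Ratios were compared by exact permutation with NumPy 2.4.6 and SciPy 1.17.1. The fit was run on simulated data with the same spread in all groups and no paired libraries. That run does not cover groups of unequal spread such as these. Both actins were always described, with the 2 most similar genes for each. The members, lists and tests were chosen with earlier results of these data known. Alternatives were other scalings and filters, the label code as a covariate, fits of single pairs of groups and blocking on replicate number. Others were DESeq2 1.42.0, limma 3.58.1 voom with quality weights for libraries, and each library left out. Fits within code sets for single genes, and without both MCT libraries numbered 5, were chosen after seeing the data. RV and LV libraries of one treatment and number share the code in their descriptions (5 of 5 numbers in each treatment), which pairs them, although with group means removed the correlation within a pair lay between -0.35 and 0.24 for MCT and between -0.18 and 0.59 for saline. MCT and saline libraries share a code in 1 of 5 numbers and are not read as pairs. The block was not in the main design. Depth ran from 3272420 to 9227104 counts. Counting intervals are exact (Clopper-Pearson, 95%) and cover counting error only. No 2 libraries of a group were identical, and over 40 pairs the chi-square per degree of freedom was at least 5.40.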

Additional observations from a re-analysis of the deposited data

Results flagged for a closer look

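Of 12 sets of 5 values examined without a log scale (Acta1, Actc1 and their ratio in each group), 1 held a library far from the rest. Chance picks out about 1 in 20, so 1 of 12 is little more than that. The library was LV MCT replicate 5, with a ratio of 38.3 Acta1 counts per 100 Actc1 counts. Its gap to the next library, at 17.0, was 0.712 of the range of its group. On the log2 scale, on which the ratios were compared, these 2 libraries were at -1.38 and -2.55, and the gap was not examined. The same library held the highest LV Acta1 level, at 1920 CPM, and belonged to the MCT pair that went against its ventricle labels, so that an exchange with the RV library of that number is possible and was not tested. Without it the log2 difference of the ratio between LV MCT and LV saline was 0.46, against 0.80 with it.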

How the results depend on the processing

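Of the recomputed comparisons, 320 kept direction and side of the threshold, 13 newly passed it, 12 lost it, 15 changed sign and 1 untested value moved. Most of the 320 were results that had not passed at first. All 12 losses fell on the only results that had, the LV fall of Actc1 (7 of 23 alternatives) and the saline ratio of RV against LV (5 of 15). Values are log2 differences, and the cause of each change was not tested. Acta1 in the RV passed with the total count alone (2.30), DESeq2 (2.10), limma voom (1.66), the May or June libraries (2.61) and both MCT libraries numbered 5 left out (2.297), and ran from 1.60 to 2.35 with 1 library left out. Acta1 in the LV turned negative with limma voom (-0.077), the May or June libraries (-0.32) and both MCT libraries numbered 5 left out (-0.297), and ran from -0.30 to 0.50 with 1 library left out. The LV fall of Actc1 lost its call with the total count (-0.48), the LV groups alone (-0.76), the May or June libraries (-0.79) and the November libraries (-0.77), and ran from -0.98 to -0.65 with 1 library left out. November libraries alone turned the difference of Acta1 responses to -0.44, Acta1 in RV against LV after MCT to -1.80, and the corresponding ratio values to -0.66 and -1.68. Acta1 in RV against LV after saline passed with those groups alone (-1.22), and Actc1 after MCT ran from -0.061 to 0.28 with 1 library left out. The ratio in RV against LV after saline lost its call with labels exchanged within codes (-0.78), medians (-0.61) and the May or June libraries (-0.61). Within codes and in May or June its p was the smallest those tests allow, and the May or June test of 3 against 3 could not pass. This ratio difference was -1.03 in November, and ran from -0.85 to -0.68 with 1 library left out. The ratio response lay between 1.60 and 2.42 for RV libraries and between 0.46 and 1.01 for LV libraries, again with 1 left out. The RV correlation turned to 0.26 with the total count and 0.35 without group means, and the LV one ran from -0.030 to 0.76.

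With the replicate block, Acta1 was 1.66 in the RV (adjusted p = 0.28) and -0.056 in the LV, the LV fall of Actc1 was -0.83 (adjusted p = 0.068) and Acta1 in RV against LV after saline was -1.20 (adjusted p = 0.00059). The ratio after saline kept -0.78 (exact sign-flip test, p = 0.0625, the smallest that 5 numbers allow), and no other call on the actins changed. For MCT against saline the numbers share a code in 1 of 5 cases, and correlations of deviations ran from -0.32 to 0.22, so these libraries share only a number.

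Counts of genes called were unstable. For RV MCT, 30 genes became 0 with the RV groups alone, the block or November, 18 without a filter, 19 with the code as a term, 48 with the total count, 188 in May or June, 250 without the libraries numbered 5, 275 with limma voom and 374 with DESeq2, and ran from 0 to 707 with 1 library left out. For LV MCT, 1040 became 0 in May or June, 243 in November, 356 with the block and without the libraries numbered 5, 2142 with the total count and 2911 with limma voom, and ran from 331 to 1699 with 1 library left out. Between saline ventricles, 8 became 0 in November, 13 with RLE factors, 80 with those groups alone, 88 with DESeq2, 125 with limma voom and 165 with the block, and ran from 0 to 11. Between MCT ventricles, 0 became 3 in May or June and 10 without the libraries numbered 5, and ran from 0 to 2. Scaling on a total without the 10 genes with most counts raised all CPM levels, such as Actc1 in LV saline to 13369, without changing a call on the actins.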
